A study of Mus musculus with 12 samples.

Results

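The interaction of *Lactobacillus acidophilus* (*L. acidophilus*) and FK506 was measured in CD4+ T cells of the mouse spleen by RNA-seq. In each gene, the change with *L. acidophilus* in the presence of FK506 was compared with the change with *L. acidophilus* in its absence. Of the 45777 genes in the deposited table, the 23585 with counts in 3 or more of the 12 libraries were included. Stimulation without either agent (anti-CD3 alone), *L. acidophilus*, FK506 and both agents together (the combination) were the 4 groups, with 3 libraries each. All cells, those with anti-CD3 alone included, were wild type and had been stimulated with 0.5 ug/mL anti-CD3 antibody for 3 days. The labels name Balb/c mice aged 7 weeks, whereas the methods of the study name B6 mice of another age range. Doses of *L. acidophilus* and FK506 are not given for these cultures, and *L. acidophilus* is described as inactivated by heat in the splenocyte cultures of the same study. Nothing in the labels says that the libraries of a group came from separate animals or cultures, so the p-values measure the spread between these libraries, which may be technical.

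FK506 (tacrolimus) binds the immunophilin FKBP12, and the complex inhibits the phosphatase calcineurin. Calcineurin otherwise removes phosphate from NFAT factors, which then enter the nucleus of a T cell stimulated through its receptor and switch on cytokine genes. Heat-inactivated lactobacilli carry cell-wall components that are sensed mainly by Toll-like and Nod receptors, which are most abundant on antigen-presenting cells. When the effects of both agents add up on the log2 scale, the fold changes multiply and the interaction is 0. The departure from the sum is the log2 change between the combination and FK506 minus the log2 change between *L. acidophilus* and anti-CD3 alone. A departure below 0 means that the combination was lower than the sum of the single effects would place it, and a departure above 0 that it was higher. The same number is also the change with FK506 in the presence of *L. acidophilus* minus that in its absence.

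Library totals ranged from 45416397 to 64658165 counts, and the replicate 1 libraries were the deepest of each group. Of the CD4 T-cell markers, *Cd4* had 465 to 855 CPM (counts relative to the library total, after TMM scaling) and *Cd3e* 247 to 486 CPM over the 12 libraries. *Cd8a* reached at most 7.54 CPM, in an FK506 library. In a principal component analysis of the log2 CPM, in which the first component held 66.9% of the variance, 2 libraries stood apart from the others of their group. *L. acidophilus* replicate 1 lay at -17.95 against -47.47 and -48.77, and FK506 replicate 3 at 3.24 against 33.07 and 34.61. The counts of departing genes are therefore also given without them.

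Of the 23585 genes, 1025 (4.35%) departed from the sum at a Benjamini-Hochberg adjusted p under 0.05 in edgeR's quasi-likelihood test. Of these, 318 (1.35%) lay above the sum and 707 (3.00%) below it. Genes with few counts are part of these shares. A fit to the 15219 genes with a mean of at least 10 counts in each group called 545 above and 802 below, a larger share. The split depended on the tool, with 1089 above and 1291 below in DESeq2 and 866 above and 809 below in limma on log2(FPKM + 1). Below the sum were 29 of 43 DNA replication genes, 21 of 40 genes of Myc and ribosome biogenesis, 11 of 36 mitosis genes, 7 of 33 sterol and fatty acid synthesis genes and 6 of 21 Th2 and Th9 genes. Above it were *Hmox1*, *Gstm1* and *Slc7a11*, the proapoptotic gene *Bmf*, the chemokine *Ccl5*, and 5 genes each from the interferon-stimulated and the lysosomal lists.

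The genes below and above the sum had different shapes over the 4 groups. In the genes below the sum, the median log2 change with *L. acidophilus* was 0.04 without FK506 and -0.91 with FK506, and the median change with FK506 was 0.01 without *L. acidophilus* and -0.94 with it. The combination had the lowest group mean in 87.0% of these genes, against 33.9% of all genes tested. In the genes above the sum, the median change with *L. acidophilus* was -0.39 without FK506 and 0.94 with FK506, and that with FK506 was -0.41 without *L. acidophilus* and 0.82 with it. The combination had the highest mean in 67.9% of them, against 36.5% of all genes tested, and FK506 alone had the lowest mean in 57.2%, against 17.5%. The rule that selects these genes favours such shapes, and the medians cover genes that differed with the single agents in either direction. Among the genes below the sum the highest mean was in anti-CD3 for 34.2%, in *L. acidophilus* for 29.7% and in FK506 for 35.5%.

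**Figure D1:**
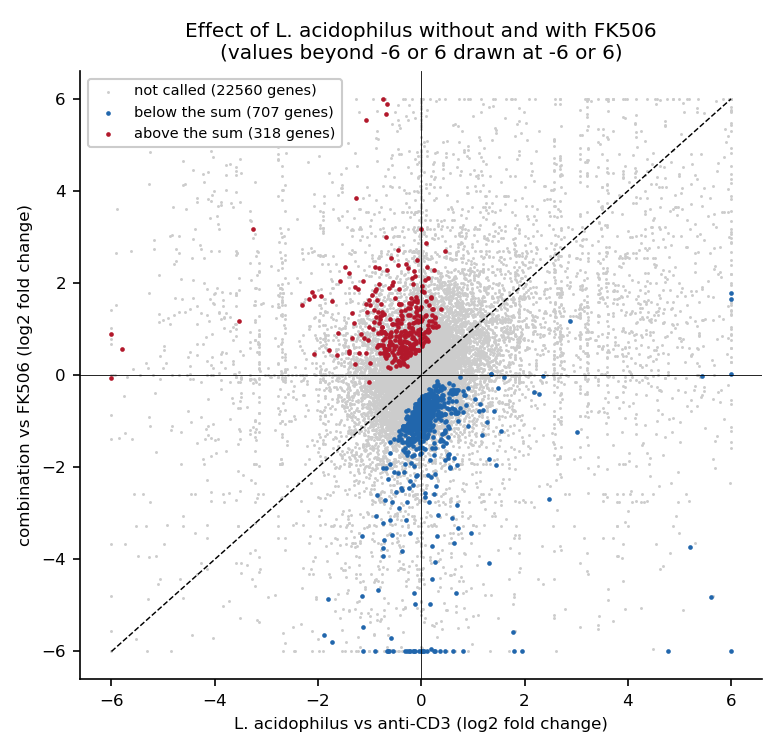
Log2 fold change with *L. acidophilus* against anti-CD3 (horizontal axis) and of the combination against FK506 (vertical axis), 1 point per gene tested, with the 707 genes below the sum in blue, the 318 above it in red and the rest in grey. On the dashed diagonal both changes are equal, and most blue points lie near 0 on the horizontal axis and under 0 on the vertical axis.

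The 4 simple comparisons that make up the departure differed in size. With *L. acidophilus* against anti-CD3 alone, 54 genes (0.229%) passed the same threshold, 42 higher (0.178%) and 12 lower (0.0509%), and 3489 had an unadjusted p under 0.05. With *L. acidophilus* in the presence of FK506, 4508 genes (19.1%) passed, 1929 higher (8.18%) and 2579 lower (10.9%). With FK506 against anti-CD3 alone 4483 genes (19.0%) passed, 2406 higher (10.2%) and 2077 lower (8.81%). With FK506 in the presence of *L. acidophilus* 7930 genes (33.6%) passed, 3920 higher (16.6%) and 4010 lower (17.0%). The first of these counts rested on single libraries more than the others did: it was 1 without *L. acidophilus* replicate 1 or replicate 2, 8 without *L. acidophilus* replicate 3, 5 to 35 without anti-CD3 replicate 1 or 2, FK506 replicate 1 or 2 or combination replicate 2 or 3, and 391 without anti-CD3 replicate 3. With the replicate number as a block it was 101, and the 3 same-number pairs of these 2 groups deviated together (correlations of 0.483, 0.341 and 0.199 over 12268 genes). The count of *L. acidophilus* with FK506 fell to 2343 without FK506 replicate 3, 2786 without combination replicate 2 and 2833 without combination replicate 3, and that of FK506 alone to 2495 without FK506 replicate 2. On the linear scale of group mean CPM, where effects add without logarithms, the departure had the same sign in 318 of the 318 genes above the sum and in 696 of the 707 below it. The exceptions included *Il13*, *Il24* and *Fads2*, whose means were lower with each single agent and which had linear departures of 170, 55.7 and 21.5 CPM.

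The number of departing genes rested on single libraries. It fell to 332 without *L. acidophilus* replicate 2, 400 without *L. acidophilus* replicate 3, 442 without FK506 replicate 3, 383 without combination replicate 2 and 477 without combination replicate 3. Leaving out any 1 of the other libraries gave 727 to 1464. Without both libraries that stood apart, an alternative chosen after seeing the data, 306 genes departed, 92 above and 214 below the sum. In all 12 fits that left out 1 library, 284 genes (1.20%) departed in the same direction, 68 above (0.288%) and 216 below (0.916%). These are called stable in the following.

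**Figure D2:**
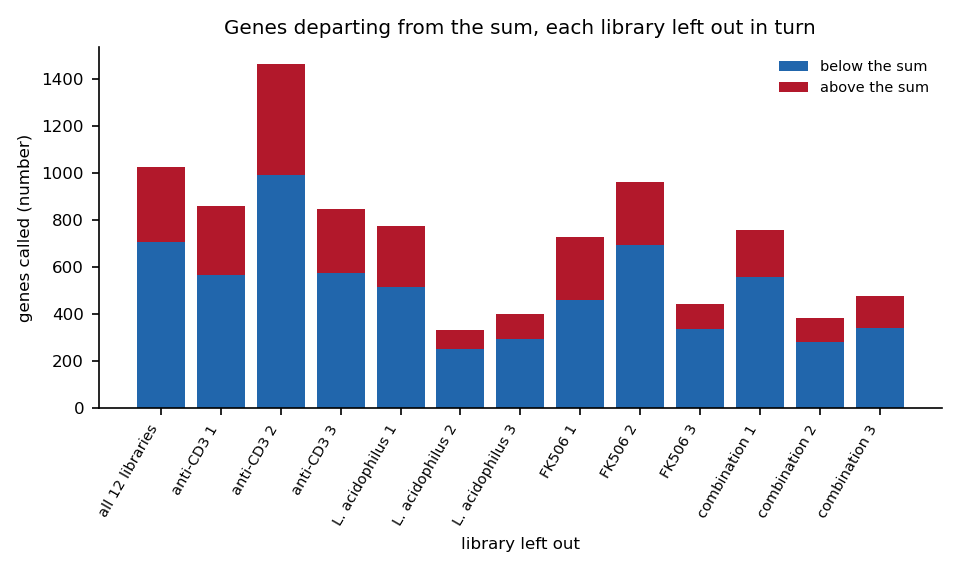
Number of genes called below the sum (blue) and above it (red, stacked on the blue) with all 12 libraries and with each library left out in turn. The count is 1025 with all libraries and lowest, at 332, without *L. acidophilus* replicate 2.

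DNA replication genes departed most often. Of the 43 tested, 29 (67.4%) were below the sum, 18 of them stable, and 0 were above it in edgeR (0 above 0 also at an unadjusted p under 0.05 and with DESeq2). The departure was below 0 in 43 of the 43, from -1.41 to -0.13, with a median of -0.87 against -0.01 for all genes. The CPM summed over the list was 7041, 7425 and 6602 in the anti-CD3 libraries, 6802, 6294 and 6183 with *L. acidophilus*, 6947, 6001 and 7090 with FK506, and 3339, 3624 and 3571 with the combination. The sums of the other groups overlapped, and all 3 combination libraries were far under them. *L. acidophilus* alone lowered 0 of the 43 genes in edgeR's test (8 at an unadjusted p under 0.05, and 0 with limma-voom), whereas in the presence of FK506 it lowered 40 of the 43. FK506 alone lowered 6, and FK506 in the presence of *L. acidophilus* 40. In bulk RNA, fewer dividing cells and less of these transcripts per cell cannot be told apart.

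*Gins1* (gene ID 69270), a subunit of the GINS complex of the replicative helicase, had 22.7, 18.4 and 20.7 CPM with anti-CD3, 22.1, 22.6 and 22.7 with *L. acidophilus*, 19.1, 16.2 and 21.3 with FK506, and 7.33, 7.67 and 8.26 with the combination. The combination libraries did not overlap with any other group, and the departure was -1.41 (standard error 0.18, adjusted p = 0.00447, edgeR). *Fen1* (gene ID 14156), the flap endonuclease that trims Okazaki fragments, had 127 to 158 CPM in the 9 libraries without the combination and 73.8, 75.8 and 74.8 CPM with it (departure -0.98, standard error 0.13, adjusted p = 0.00447, edgeR). *Mcm10* (gene ID 70024), which helps to start the helicase, had 74.0 to 105 CPM in those 9 libraries and 29.5, 36.7 and 35.0 CPM with the combination (departure -1.26, standard error 0.17, adjusted p = 0.00467, edgeR). *Cdc6* (gene ID 23834), which loads the MCM helicase onto origins, had 65.8 to 98.7 CPM without and 26.9, 33.9 and 32.2 CPM with the combination (departure -1.21, standard error 0.17, adjusted p = 0.0062, edgeR). All 4 genes are stable. Also below the sum and stable were the helicase subunits *Mcm2*, *Mcm3*, *Mcm4* and *Mcm7*, the ribonucleotide reductase subunit *Rrm2* and cyclin E1 (*Ccne1*), with departures from -1.26 to -0.81. The list's count was between 18, without *L. acidophilus* replicate 2, and 35, without anti-CD3 replicate 2, and it was 15 without both libraries that stood apart.

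Many replication genes are targets of E2F factors, so promoters of 300 bases around the gene starts (RefSeq, GRCm38.p6) were searched on both strands for the E2F letters TTTCCCGC or TTTGGCGC. They were found in 11 of 40 promoters of the replication list (27.5%), in 6.51% of the promoters of genes below the sum, in 1.76% of those of genes above it and in 2.34% of all 18970 promoters of genes tested. In the mitosis list 0 of 32 promoters held these letters. The sets compared differ in kind. Protein-coding genes made up 92.6% of the genes below the sum, 95.3% of those above it and 65.8% of all tested. The median of the mean FPKM was 17.6, 5.44 and 1.26 in these sets. Genes of the replication list are also part of the genes below the sum. The promoter of *Cdc6* is printed as an example of a replication gene below the sum that holds them, with the match (on the reverse strand) in capitals.
Cdc6 (chr11:98907901-98908200, plus strand): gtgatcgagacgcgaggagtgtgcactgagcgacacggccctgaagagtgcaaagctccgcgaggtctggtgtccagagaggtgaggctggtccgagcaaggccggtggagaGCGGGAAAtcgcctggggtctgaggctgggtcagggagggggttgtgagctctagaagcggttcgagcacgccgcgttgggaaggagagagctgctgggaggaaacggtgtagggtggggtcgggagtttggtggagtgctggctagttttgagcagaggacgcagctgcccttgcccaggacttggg

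Mitosis genes were also below the sum, with 11 of 36 (30.6%) called in edgeR, 3 of them stable, and departures below 0 in 36 of the 36 (median -0.74). DESeq2 called 22 below and 0 above, and 30 departures had an unadjusted p under 0.05, all below 0. *L. acidophilus* alone lowered 0 of the 36 genes in edgeR's test and 6 had an unadjusted p under 0.05, all 6 higher, while 0 passed with limma-voom. In the presence of FK506 it lowered 27. *Cks2* (gene ID 66197), a small partner of the mitotic kinase Cdk1, had 68.3, 68.5 and 69.6 CPM with anti-CD3, 72.6, 75.7 and 75.2 with *L. acidophilus*, 65.8, 54.7 and 75.2 with FK506, and 35.4, 39.7 and 36.4 with the combination (departure -0.92, standard error 0.16, adjusted p = 0.011, edgeR). *Birc5* (survivin) departed by -0.89 (adjusted p = 0.0126, edgeR) and the kinetochore gene *Spc25* by -0.91 (adjusted p = 0.0151, edgeR). The mitotic kinesin *Kif20a* departed by -1.02 (adjusted p = 0.0181, edgeR) and was not called without *L. acidophilus* replicate 2. The combination libraries of this list differed among themselves, with summed CPM of 3012 in replicate 1 and 4318 and 4288 in replicates 2 and 3, all below the 4895 to 6643 of the other groups. The number of mitosis genes called fell to 3 without *L. acidophilus* replicate 2, to 4 without *L. acidophilus* replicate 3 or FK506 replicate 3, and to 1 without both libraries that stood apart, and it was 17 without FK506 replicate 2. The median departure of the list stayed between -0.85 and -0.57 when 1 library was left out.

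Cell cycle inhibitors and p53 targets did not move as a block. *Cdkn1b* (p27, an inhibitor of cyclin-dependent kinases that keeps cells out of the cycle) had 62.6, 72.2 and 66.0 CPM with anti-CD3, 65.2, 65.8 and 74.6 with *L. acidophilus*, 78.9, 89.7 and 67.9 with FK506, and 159, 140 and 144 with the combination. It lay above the sum (departure 0.87, standard error 0.16, adjusted p = 0.0156, edgeR) and missed the threshold only without *L. acidophilus* replicate 2 (adjusted p = 0.0511, edgeR). The p53 targets *Ccng1* (-0.90, adjusted p = 0.0289) and *Zmat3* (-1.11, adjusted p = 0.0484) and the stress gene *Gadd45g* (-1.60, adjusted p = 0.0325) lay below the sum in edgeR, and were called in 6, 2 and 4 of the 12 fits that left out 1 library.

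Genes of ribosome biogenesis and other Myc targets had a median departure of -0.88. Of the 40 tested, 21 (52.5%) were below the sum, 12 of them stable, and 0 above it in edgeR (1 above 0 at an unadjusted p under 0.05, 1 with DESeq2 and 1 with limma on log2(FPKM + 1)). The summed CPM was 8521, 10210 and 9273 with anti-CD3, 8209, 9048 and 9061 with *L. acidophilus*, 7157, 7263 and 9521 with FK506, and 4187, 4182 and 4077 with the combination. Again the combination was far under the other groups, which overlapped. *Gnl3* (gene ID 30877, nucleostemin) had 92.9, 131 and 125 CPM with anti-CD3, 110, 120 and 124 with *L. acidophilus*, 114, 99.3 and 136 with FK506, and 49.2, 48.4 and 45.6 with the combination. Its log2 change with *L. acidophilus* was 0.02 without FK506 and -1.29 with it, a departure of -1.31 (standard error 0.20, adjusted p = 0.00751, edgeR). *Dkc1* (dyskerin, which modifies ribosomal RNA) departed by -1.27, *Cad* (the first enzyme of pyrimidine synthesis) by -1.27 and *Rrp12* (a factor of ribosome assembly) by -1.27, with adjusted p of 0.00738, 0.00738 and 0.00644 in edgeR. *Myc* itself, named after its values were seen, departed by -1.29 (standard error 0.22, adjusted p = 0.0107, edgeR), and the nucleolar genes *Ncl*, *Nolc1* and *Utp20* by -1.21, -1.28 and -1.42, all of them stable. The count of the list fell to 12 without *L. acidophilus* replicate 2 or replicate 3, to 13 without combination replicate 2 or replicate 3 and also without both libraries that stood apart, and to 14 without FK506 replicate 3. The cytosolic ribosomal protein genes, the products that these factors assemble, had a median departure of -0.10, with 0 of 77 called in edgeR, 4 at an unadjusted p under 0.05 and 1 with DESeq2, all below 0.

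**Figure D3:**
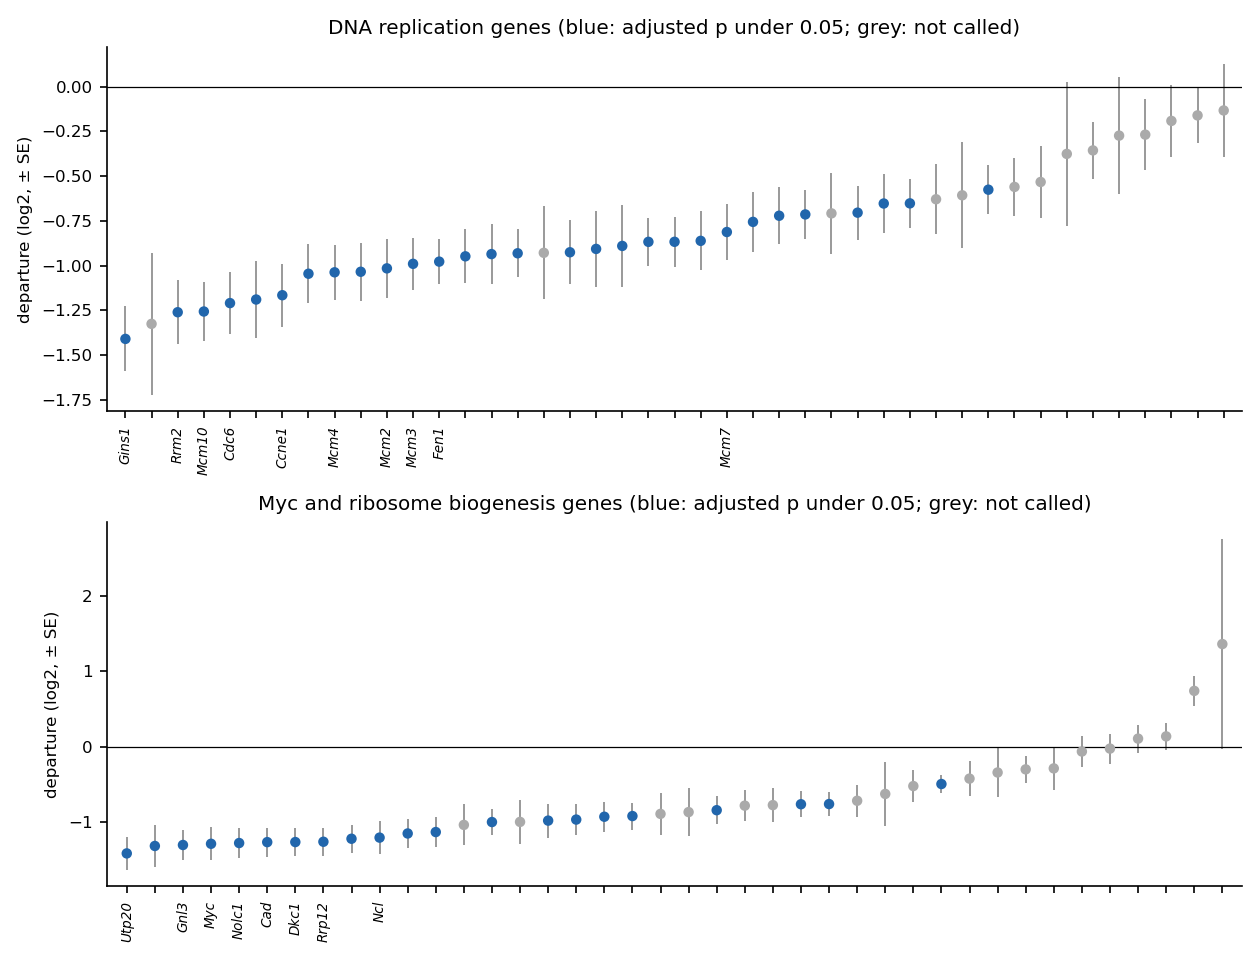
Departure from the sum (log2, points, with 1 standard error as bars) of each DNA replication gene (top) and each Myc and ribosome biogenesis gene (bottom), ordered by the departure, with the genes described in the text named. Blue points passed the threshold and grey points did not, and all 43 replication genes lie under 0.

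Most lipid synthesis genes fell with FK506 alone, and some of them departed below the sum. Of 33 sterol and fatty acid synthesis genes, 7 (21.2%) were below the sum, 5 of them stable, with a median departure of -0.42. FK506 alone lowered 26 and *L. acidophilus* alone 0 in edgeR's test, with 12 lower at an unadjusted p under 0.05 and 1 with limma-voom. *Fasn* (gene ID 14104), the fatty acid synthase, had 815, 594 and 687 CPM with anti-CD3, 739, 650 and 663 with *L. acidophilus*, 629, 529 and 709 with FK506, and 231, 263 and 249 with the combination (departure -1.30, standard error 0.19, adjusted p = 0.00738, edgeR). *Sqle*, which catalyses the first oxygenation of sterol synthesis, departed by -0.93 (adjusted p = 0.0123, edgeR). *Fads2* (fatty acid desaturase 2) had 148, 142 and 130 CPM with anti-CD3, 68.4, 107 and 102 with *L. acidophilus*, 35.8, 13.5 and 38.6 with FK506, and 2.68, 3.8 and 3.46 with the combination, a stepwise order with a departure of -2.55 (standard error 0.45, adjusted p = 0.013, edgeR). *Idi1* (isopentenyl diphosphate isomerase) departed by -0.94 and is stable, while *Acaca* (-0.96, adjusted p = 0.0436, edgeR) and *Scd2* (-2.23, adjusted p = 0.0401, edgeR) were each called in 3 of the 12 fits that left out 1 library. Without FK506 replicate 2, 12 genes of the list were below the sum. The folate cycle enzymes *Shmt1* (-1.63, adjusted p = 0.00493) and *Mthfd1* (-0.81, adjusted p = 0.0145) and the mitochondrial chaperone *Hspd1* (-1.32, adjusted p = 0.00623) were also below the sum and stable in edgeR.

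The Th2 and Th9 list had the lowest median of all lists, -1.13. Of its 21 genes, 6 (28.6%) were below the sum and 0 above it (edgeR, 0 above with DESeq2 as well). They were the cytokines *Il4*, *Il9*, *Il13* and *Il24*, the receptor chain *Il4ra* and *Gata3*, the lineage factor of Th2 cells. Without combination replicate 2 the count was 3. *Il4* (gene ID 16189) had 44.5, 15.5 and 16.8 CPM with anti-CD3, 61.7, 12.1 and 14.9 with *L. acidophilus*, 24.1, 15.3 and 33.7 with FK506, and 1.21, 0.808 and 1.37 with the combination. Replicate 1 was highest in the first 2 groups, the 3 groups overlapped, and each combination library was under all of them. The log2 change of *Il4* with *L. acidophilus* was 0.21 without FK506 and -4.42 with it, a departure of -4.63 (standard error 0.89, adjusted p = 0.0173, edgeR), which missed the threshold without combination replicate 2 (adjusted p = 0.0542, edgeR).

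*Il9* (gene ID 16198), the cytokine of Th9 cells, had 27.4, 27.8 and 20 CPM with anti-CD3, 41.6, 14.7 and 16.3 with *L. acidophilus*, 16.6, 19.2 and 48.8 with FK506, and no count in the 3 combination libraries. Against a floor of 3 counts per library, which covers counting error only, the combination was at least 522-fold lower than FK506. *Il24* (gene ID 93672), a cytokine of the IL-10 family that Th2 cells make, had 32.0 to 124 CPM with FK506 and also no count with the combination, at least 1500-fold lower. Both were called in all 12 fits that left out 1 library (adjusted p = 0.00447 for each with all libraries, edgeR). With the combination set to the floor, their departures were -8.98 and -9.42. *Gata3* (gene ID 14462) changed less, from 354, 301 and 312 CPM with anti-CD3, 335, 319 and 312 with *L. acidophilus* and 226, 180 and 263 with FK506 to 109, 99.1 and 105 with the combination (departure -1.10, standard error 0.18, adjusted p = 0.00933, edgeR). *Il4ra* departed by -0.95 (adjusted p = 0.0358, edgeR) and was called in 2 of the 12 fits that left out 1 library.

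*Il13* (gene ID 16163) differed from *Il4* in its single effects. It had 547, 364 and 178 CPM with anti-CD3, 178, 57.4 and 77.0 with *L. acidophilus*, 84.3, 65.4 and 126 with FK506, and 2.81, 2.97 and 3.64 with the combination. Both single agents had lower means than anti-CD3 alone (log2 change -1.80 with *L. acidophilus*, adjusted p = 0.109, and -1.98 with FK506, adjusted p = 0.0104, edgeR), and every combination library was far under them. The departure of -3.07 (standard error 0.65, adjusted p = 0.0238, edgeR) was lost without FK506 replicate 3 and without each of the 3 combination libraries (highest adjusted p = 0.0641, edgeR). *Il21* (gene ID 60505), a cytokine of Tfh and Th17 cells, had 222, 116 and 145 CPM with anti-CD3, 207, 77.0 and 130 with *L. acidophilus*, 27.8, 23.4 and 59.4 with FK506, and 3.20, 3.66 and 3.36 with the combination. *L. acidophilus* changed it by -0.22 without FK506 and by -3.44 with it (departure -3.21, standard error 0.57, adjusted p = 0.013, edgeR), and it is stable. Of the 20 genes in the Th17 list, 3 (15.0%) were below the sum and 0 above it in edgeR (3 above 0 at an unadjusted p under 0.05, and 2 with DESeq2), although 13 departures were over 0 and the median was 0.26. Besides *Il21* they were *Il17d* and *Gzma*, which departed by -7.40 and -3.02 (adjusted p = 0.00766 and 0.0248, edgeR). *Il17d* had at most 0.449 CPM in any library and no count with the combination, at least 5.16-fold lower than with FK506, and *Gzma* was called in 6 of the 12 fits that left out 1 library. Of the 17 genes that the study names from these data, *Il13*, *Il21*, *Il17d* and *Gzma* were the 4 that departed in edgeR (5 below 0 with DESeq2, and 3 below and 1 above with limma on log2(FPKM + 1)). That list was chosen on these samples and is no independent evidence.

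Cytokine promoters are the best known targets of NFAT, whose sites hold the core GGAAA. The letters TGGAAA, searched on both strands, were found in 7 of 20 promoters of the Th2 and Th9 list (35.0%), in 17.1% of the promoters of genes below the sum, in 19.9% of those above it and in 18.2% of all. In the other lists searched, the share ran from 9.38% (mitosis) to 31.4% (Myc and ribosome biogenesis) and 37.5% (interferon-stimulated), so it was not particular to cytokines. The promoter of *Il9*, which also departed, held 0 matches, and those of *Il4* held 1 and 2. The promoters of *Il13* and *Il21* are printed because these cytokine genes departed and their promoters hold several matches, which are in capitals (TTTCCA is the same motif on the reverse strand).
Il13 (chr11:53634653-53634952, minus strand): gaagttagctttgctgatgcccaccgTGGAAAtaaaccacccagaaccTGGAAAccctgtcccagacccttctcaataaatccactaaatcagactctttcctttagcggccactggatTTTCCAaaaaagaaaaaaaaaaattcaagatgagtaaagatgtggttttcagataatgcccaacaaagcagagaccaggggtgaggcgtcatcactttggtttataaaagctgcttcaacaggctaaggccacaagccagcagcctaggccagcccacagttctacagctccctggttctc
Il21 (chr3:37232587-37232886, minus strand): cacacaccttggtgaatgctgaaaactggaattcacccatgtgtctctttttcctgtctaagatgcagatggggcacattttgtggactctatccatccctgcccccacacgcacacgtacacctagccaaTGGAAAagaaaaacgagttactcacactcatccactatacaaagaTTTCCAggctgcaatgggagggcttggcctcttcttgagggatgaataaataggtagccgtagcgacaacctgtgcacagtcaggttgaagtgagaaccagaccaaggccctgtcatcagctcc

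**Figure D4:**
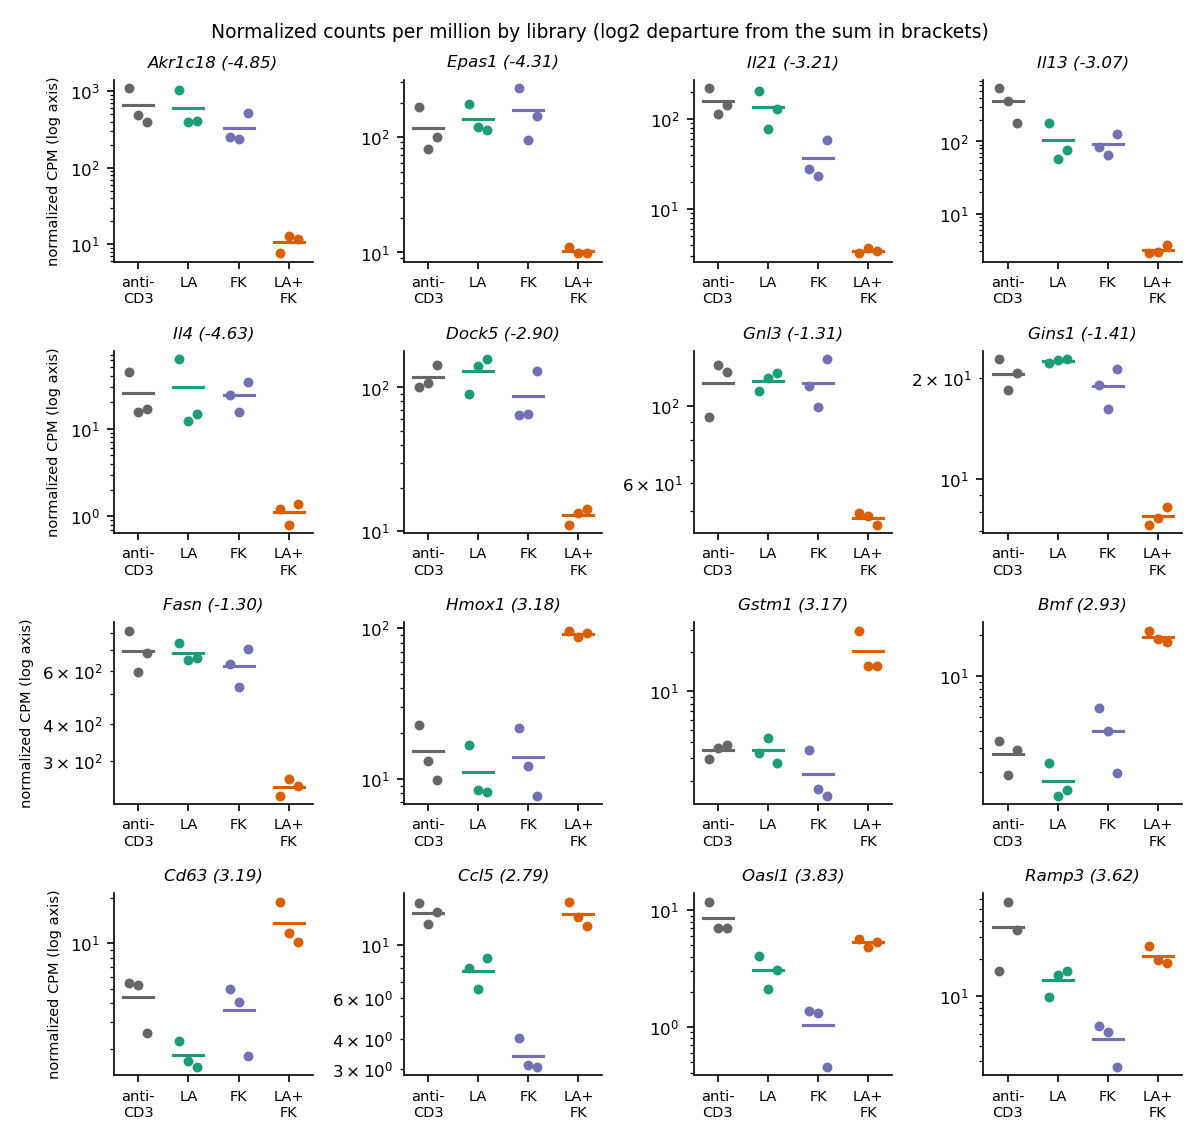
CPM after TMM scaling of 16 genes in each library (points, log axis) with the group mean (line), for anti-CD3, *L. acidophilus* (LA), FK506 (FK) and the combination (LA+FK). The log2 departure stands beside each name, and the first 9 genes are lowest in the combination, *Hmox1*, *Gstm1*, *Bmf* and *Cd63* are highest in it, and *Ccl5*, *Oasl1* and *Ramp3* are lowest with FK506 alone.

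Single genes were ranked if they had a stable departure, a mean FPKM of at least 1 and at least 10 counts on average in each group. Among them, the lowest departures included those of *Gask1a* (-5.12), *Akr1c18* (-4.85), *Epas1* (-4.31), *Stra6* (-3.82), *P2ry1* (-3.52), *Cacna1c* (-3.37), *Il21* (-3.21), *Dock5* (-2.90) and *Efna5* (-2.85). *Akr1c18* (gene ID 105349), which inactivates progesterone and is known from Th2 cells, had 1099, 495 and 401 CPM with anti-CD3, 1029, 399 and 409 with *L. acidophilus*, 250, 242 and 519 with FK506, and 7.62, 12.9 and 11.7 with the combination (standard error 0.69, adjusted p = 0.0062, edgeR). *Epas1* (gene ID 13819), the hypoxia-inducible factor HIF-2alpha, had 183, 79.0 and 101 CPM with anti-CD3, 194, 123 and 116 with *L. acidophilus*, 266, 94.3 and 153 with FK506, and 11.2, 9.94 and 9.82 with the combination (standard error 0.54, adjusted p = 0.00447, edgeR). For both genes the other 3 groups overlapped and the combination was more than an order of magnitude lower than with FK506. The calcium channel subunit *Cacna1c* had 28.3 to 71.5 CPM in the 9 libraries without the combination and 1.74, 7.41 and 5.76 CPM with it. The purinergic receptor *P2ry1* had 18.1 to 53.3 CPM in those 9 libraries and 2.49, 6.20 and 5.76 CPM with the combination.

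The 24 B-cell markers had summed CPM between 339 and 687 with anti-CD3, between 266 and 502 with *L. acidophilus*, between 2498 and 4767 with FK506 and between 1771 and 1982 with the combination, and 0 of the 24 were at 0 in every library. None of them departed by the threshold in edgeR (7 below and 3 above 0 at an unadjusted p under 0.05, and 3 below and 2 above 0 with DESeq2), and their median departure was -0.52. *H2-DMa*, which loads peptides onto MHC class II, was the only 1 of 12 class II genes below the sum, with 42.3, 41.5 and 33.2 CPM with anti-CD3, 47.2, 37.5 and 37.5 with *L. acidophilus*, 109, 106 and 90.6 with FK506 and 48.3, 47.3 and 50.2 with the combination (departure -1.12, standard error 0.18, adjusted p = 0.0086, edgeR). It followed the order of the B-cell marker sums in being highest with FK506 alone, and the part of B-cell RNA in it was not tested. The 14 plasma cell markers had a median departure of -0.97. Their summed CPM lay between 1724 and 1991 with anti-CD3, between 1581 and 1691 with *L. acidophilus*, between 1557 and 2081 with FK506 and between 713 and 925 with the combination. All 3 combination libraries were under those of the other groups. The list holds *Irf4*, *Prdm1*, *Xbp1* and *Slamf7*, which are not confined to plasma cells, so its sums do not measure plasma cells alone. The part of plasma cell RNA in the genes below the sum was not tested.

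A pair of genes were higher with each agent alone than with anti-CD3 and were not higher still with both. *Bcl2l11* (gene ID 12125), which encodes the proapoptotic protein Bim, had 52.4, 41.8 and 69.3 CPM with anti-CD3, 147, 142 and 128 with *L. acidophilus*, 150, 183 and 153 with FK506, and 154, 169 and 174 with the combination. It rose by 1.35 with *L. acidophilus* alone (adjusted p = 0.0199, edgeR) and by 1.57 with FK506 alone (adjusted p = 0.000163, edgeR), and the combination differed from FK506 by 0.04 (standard error 0.16). The departure of -1.31 (standard error 0.22, adjusted p = 0.0113, edgeR) is stable, and the 3 groups that received an agent overlapped or lay close to each other, above all anti-CD3 libraries. The chemokine *Ccl1* (gene ID 20290) had 3.53, 4.20 and 5.66 CPM with anti-CD3, 19.2, 12.3 and 7.26 with *L. acidophilus*, 10.1, 6.62 and 9.21 with FK506, and 2.78, 4.46 and 3.91 with the combination (departure -2.76, standard error 0.47, adjusted p = 0.0114, edgeR). Its rises with the single agents did not pass the threshold (adjusted p = 0.0754 and 0.0642, edgeR).

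Above the sum, the 10 highest departures by the same criteria were those of *Oasl1* (3.83), *Ramp3* (3.62), *Cd63* (3.19), *Hmox1* (3.18), *Gstm1* (3.17), *Bmf* (2.93), *Ccl5* (2.79), *Ccrl2* (2.75), *Ppp1r3b* (2.53) and *Sphk1* (2.52). *Hmox1*, *Gstm1*, *Bmf* and *Cd63* had no change past the threshold with either agent alone and were highest with both. *Oasl1*, *Ramp3*, *Ccl5* and *Ppp1r3b* were lowered by FK506, and in its presence *L. acidophilus* brought *Ccl5* back to the anti-CD3 range, while *Ppp1r3b* stayed low. *Ccrl2* and *Sphk1* were lower with FK506 alone than with anti-CD3 and highest with the combination.

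*Hmox1* (gene ID 15368), heme oxygenase 1, had 22.9, 13.1 and 9.75 CPM with anti-CD3, 16.7, 8.45 and 8.16 with *L. acidophilus*, 21.8, 12.1 and 7.72 with FK506, and 96.6, 87.7 and 92.3 with the combination. Its log2 change with *L. acidophilus* was -0.45 without FK506 (adjusted p = 0.633) and 2.73 with it (adjusted p = 0.00135, edgeR), a departure of 3.18 (standard error 0.57, adjusted p = 0.0135, edgeR). *Gstm1* (glutathione S-transferase mu 1) had 1.54 to 4.29 CPM in the other 9 libraries and 29.6, 15.8 and 15.7 CPM with the combination (adjusted p = 0.00738, edgeR). *Slc7a11* (gene ID 26570), the cystine transporter that supplies glutathione synthesis, had 0.522 to 2.76 CPM in those 9 libraries and 9.61, 18.2 and 18.4 CPM with the combination (departure 3.67, standard error 0.64, adjusted p = 0.0123, edgeR). These 3 genes are stable. They are known targets of the factor Nrf2, were set side by side after their values were seen and do not form a list of their own. The antioxidant response element that Nrf2 binds, searched on both strands as TGAC, 3 bases of any kind and GC, was found in 11.7% of the promoters of genes above the sum, in 16.5% of those below it and in 13.7% of all, and in 0 of the promoters of *Gstm1* and *Slc7a11* that were searched. In the list of ATF4 and amino acid genes that holds *Slc7a11*, FK506 alone lowered 28 of 37, and the summed CPM was 5611, 5787 and 4357 with anti-CD3, 3460, 3420 and 3430 with *L. acidophilus*, 2907, 2706 and 3328 with FK506, and 1905, 2047 and 2025 with the combination, the lowest group. In this list 5 of 37 (13.5%) were above the sum (*Slc7a11*, *Nupr1*, *Slc1a4*, *Ddit4* and *Slc3a2*) and *Shmt1* and *Mthfd1* below it. The count above ranged from 1, without *L. acidophilus* replicate 2 or 3 or combination replicate 2 or 3, to 8, without anti-CD3 replicate 3. *Bmf* (gene ID 171543), a proapoptotic BH3-only protein, had 3.38, 1.90 and 2.88 CPM with anti-CD3, 2.34, 1.35 and 1.48 with *L. acidophilus*, 5.89, 4.00 and 1.98 with FK506, and 21.4, 18.6 and 17.7 with the combination (standard error 0.51, adjusted p = 0.0118, edgeR).

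Of 35 autophagy and lysosome genes, 5 (14.3%) were above the sum and 0 below it in edgeR, while DESeq2 called 11 above and 0 below. The 5 in edgeR were *Cd63* and *Ctsl*, of the lysosomal membrane and lumen, the lipase *Lipa*, the autophagy receptor *Sqstm1* and *Gabarapl1*. *Cd63* had 5.44, 5.29 and 2.54 CPM with anti-CD3, 2.26, 1.66 and 1.52 with *L. acidophilus*, 4.98, 4.07 and 1.79 with FK506, and 18.9, 11.7 and 10.2 with the combination (standard error 0.57, adjusted p = 0.013, edgeR). *Ctsl* (cathepsin L) had 5.11 to 12.6 CPM in the other 9 libraries and 40.5, 22.4 and 22.7 with the combination (departure 1.92, standard error 0.37, adjusted p = 0.0184, edgeR), and missed the threshold without *L. acidophilus* replicate 3 (adjusted p = 0.0507, edgeR). *Cd63* is the 1 stable gene of the 5. Without 1 library the count lay between 1, without *L. acidophilus* replicate 3, and 7, without anti-CD3 replicate 2. It was 2 without *L. acidophilus* replicate 1 or replicate 2, without FK506 replicate 2, and without combination replicate 2 or replicate 3, and 3 without FK506 replicate 1 or replicate 3 or combination replicate 1. Without both libraries that stood apart it was 1.

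Several of these genes are also abundant in macrophages, whose markers moved with the combination. Of 24 macrophage and neutrophil markers, 19 were tested and 3 were at 0 in every library. Their summed CPM was 12.3, 7.11 and 7.71 with anti-CD3, 19.1, 9.75 and 8.41 with *L. acidophilus*, 59.8, 42.2 and 25.3 with FK506 and 211.6, 140.2 and 137.6 in the 3 combination libraries. *Lyz2*, a defining marker, had at most 0.221 CPM without FK506, 6.5, 1.18 and 0.474 CPM with FK506 and 35.4, 16 and 17.6 CPM with the combination, and *Csf1r* had 0 to 0.111 CPM without FK506, 0.494 to 1.58 CPM with it and 2.87 to 3.90 CPM with the combination. None of the 19 departed in edgeR (4 above and 1 below 0 at an unadjusted p under 0.05), and DESeq2 called 0 as well, whereas limma on log2(FPKM + 1) called 12 above and 1 below the sum. Combination replicate 1 had the highest marker sum of its group. It was also the highest for *Cd63*, *Ctsl* and *Gstm1* and, with values close together, for *Hmox1* and *Bmf*, but the lowest for *Slc7a11*. The summed dendritic cell markers lay between 541 and 998 CPM with anti-CD3, between 514 and 599 with *L. acidophilus*, between 609 and 789 with FK506 and between 873 and 1416 with the combination, and 1 of 13, *Zbtb46*, was above the sum (departure 1.58, adjusted p = 0.023, edgeR, and up to 0.0648 without *L. acidophilus* replicate 2 or 3 or combination replicate 2). The part of macrophage or dendritic cell RNA in the genes above the sum was not tested.

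*Ccl5* (gene ID 20304), a chemokine of activated T cells, had the smallest adjusted p among the genes named here. It had 15.0, 12.2 and 13.7 CPM with anti-CD3, 7.99, 6.55 and 8.79 with *L. acidophilus*, 4.05, 3.12 and 3.07 with FK506, and 15.2, 13.1 and 12.0 with the combination. The combination and anti-CD3 overlapped, and both were above all libraries of the single agents. The log2 change with *L. acidophilus* was -0.81 without FK506 (adjusted p = 0.0709) and 1.98 with it (adjusted p = 0.000124, edgeR), a departure of 2.79 (standard error 0.24, adjusted p = 0.00213, edgeR). *Ramp3*, a partner of calcitonin-family receptors, had 16, 57.6 and 33.9 CPM with anti-CD3, 9.88, 14.9 and 15.9 with *L. acidophilus*, 5.76, 5.12 and 2.70 with FK506, and 25.4, 19.4 and 18.4 with the combination (standard error 0.58, adjusted p = 0.0085, edgeR). The signal transducer *Stat4* of the Th1 list was also above the sum (1.19, adjusted p = 0.0302, edgeR), in 4 of the 12 fits that left out 1 library. *Tbx21*, the Th1 lineage factor, departed by -0.83 (standard error 0.38, adjusted p = 0.26, edgeR).

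Interferon-stimulated genes had a median departure of 0.78, with 5 of 45 (11.1%) above the sum and 0 below it in edgeR, while DESeq2 called 17 above and 1 below. The 5 were *Oasl1*, *Oas1a*, *Oas1g*, *Ifih1* and *Isg15*, of which *Oasl1* is stable. *Oasl1* (gene ID 231655) had 11.9, 7.13 and 7.01 CPM with anti-CD3, 4.09, 2.11 and 3.07 with *L. acidophilus*, 1.36, 1.31 and 0.453 with FK506, and 5.73, 4.85 and 5.39 with the combination (standard error 0.54, adjusted p = 0.00597, edgeR). *Oas1a* (gene ID 246730), an enzyme that senses double-stranded RNA, had 10.2, 20.1 and 12.9 CPM with anti-CD3, 4.28, 2.85 and 3.07 with *L. acidophilus*, 4.78, 2.17 and 1.71 with FK506, and 19.0, 5.21 and 4.62 with the combination. Combination replicate 1 was the highest of its group, and in FK506 and *L. acidophilus* replicate 1 was also highest. The departure of *Oas1a* was 3.81 (standard error 0.77, adjusted p = 0.0212, edgeR) and was lost without *L. acidophilus* replicate 2, *L. acidophilus* replicate 3 or FK506 replicate 3 (adjusted p up to 0.064, edgeR). *Oas1a* and *Oas1g* are near-identical copies, so their reads may be split between them. The count of the list was 1 without *L. acidophilus* replicate 2, *L. acidophilus* replicate 3 or FK506 replicate 3, and 3 without FK506 replicate 1 or replicate 2, anti-CD3 replicate 3 or any 1 of the combination libraries. The median departure of the list fell to 0.27 without combination replicate 1. The summed CPM of the list was 3626, 4739 and 4517 with anti-CD3, 4413, 4262 and 4472 with *L. acidophilus*, 4715, 4927 and 5085 with FK506 and 6416, 4922 and 4891 with the combination. The combination libraries were above all anti-CD3 and *L. acidophilus* libraries and overlapped with FK506.

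The interferon-stimulated response element, searched on both strands as GAAA, 2 bases of any kind and GAAA, was found in 22 of 40 promoters of this list (55.0%), in 5.28% of the promoters of genes above the sum, in 3.03% of those below it and in 3.16% of all. The promoter searched for *Oasl1*, the stable gene, held 0 matches, and those of *Isg15* and *Oas1g* held 3 and 2. The promoter of *Oas1a* is printed as one of a gene above the sum that holds the element, with 2 overlapping matches in capitals, which also contain the letters TGGAAA searched above.
Oas1a (chr5:120907476-120907775, minus strand): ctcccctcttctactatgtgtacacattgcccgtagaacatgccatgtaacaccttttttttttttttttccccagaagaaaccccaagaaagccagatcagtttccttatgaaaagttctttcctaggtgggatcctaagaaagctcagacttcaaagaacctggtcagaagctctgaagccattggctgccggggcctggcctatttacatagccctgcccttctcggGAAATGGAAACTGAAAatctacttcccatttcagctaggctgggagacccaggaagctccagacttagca

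In the list of TNF family costimulation and Cd28 genes, *Tnfrsf9* (4-1BB), *Tnfrsf1b* (TNF receptor 2) and *Cd80*, a ligand of Cd28, were above the sum, 3 of 23 (13.0%), none of them stable. Without *L. acidophilus* replicate 2 or replicate 3 the count was 0 of 23 in edgeR, and it was 1 without anti-CD3 replicate 3, FK506 replicate 2, FK506 replicate 3 or any 1 of the combination libraries. *Tnfrsf9* had 588, 759 and 542 CPM with anti-CD3, 436, 348 and 369 with *L. acidophilus*, 384, 223 and 179 with FK506, and 578, 465 and 470 with the combination (departure 1.66, standard error 0.34, adjusted p = 0.0219, edgeR), with adjusted p of up to 0.0656 without *L. acidophilus* replicate 2 or replicate 3. Its adaptor *Traf1* (1.34, adjusted p = 0.0131) and the kinase *Irak2* of Toll-like receptor signalling (1.65, adjusted p = 0.00447) were above the sum and stable in edgeR. *Irak2* had 52.0, 40.5 and 35.7 CPM with anti-CD3, 30.2, 31.8 and 32.1 with *L. acidophilus*, 24, 27.3 and 19.4 with FK506, and 56.1, 53.9 and 52.7 with the combination. The regulatory subunit *Pik3r1* of PI3 kinase (0.93, adjusted p = 0.0135) and the phosphatase *Ubash3b* (1.27, adjusted p = 0.0112), which restrains T-cell receptor signalling, were also stable above the sum in edgeR.

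Treg genes did not pass the threshold for a departure. Of the 23 tested, 0 were called in edgeR (3 above and 1 below 0 at an unadjusted p under 0.05), and DESeq2 called 2 above and 1 below the sum. *Foxp3* (gene ID 20371), the Treg lineage factor, had 20.7, 22.2 and 26.9 CPM with anti-CD3, 107, 32.5 and 33.6 with *L. acidophilus*, 186, 148 and 95 with FK506, and 440, 377 and 392 with the combination. The groups followed each other upward, with *L. acidophilus* replicate 1 above FK506 replicate 3, and the log2 change with *L. acidophilus* was 1.31 without FK506 and 1.49 with it. The departure was 0.19 with a standard error of 0.56 (adjusted p = 0.931, edgeR), which leaves room for a departure of either sign. It rested on *L. acidophilus* replicate 1, without which the departure of *Foxp3* was 0.99 (adjusted p = 0.105, edgeR). Without that library *Ikzf2* (0.70), *Itgb8* (0.72) and *Nt5e* (2.30) also moved upward, none of them called (adjusted p of 0.249, 0.444 and 0.0807, edgeR). For *Ikzf2* (-0.27, standard error 0.62), *Itgb8* (-0.11, standard error 0.64), *Nrp1* (0.46, standard error 0.30) and *Nt5e* (0.94, standard error 0.91) the adjusted p lay between 0.444 and 0.994 (edgeR). The inhibitory receptors with *Tox* had departures above 0 in 17 of 18 genes (median 0.53), but 0 were called in edgeR, 6 had an unadjusted p under 0.05, all above 0, and DESeq2 called 3. Among calcineurin and NFAT genes, 0 of 21 were called in edgeR (3 below and 2 above 0 at an unadjusted p under 0.05, and 1 above with DESeq2).

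**Figure D5:**
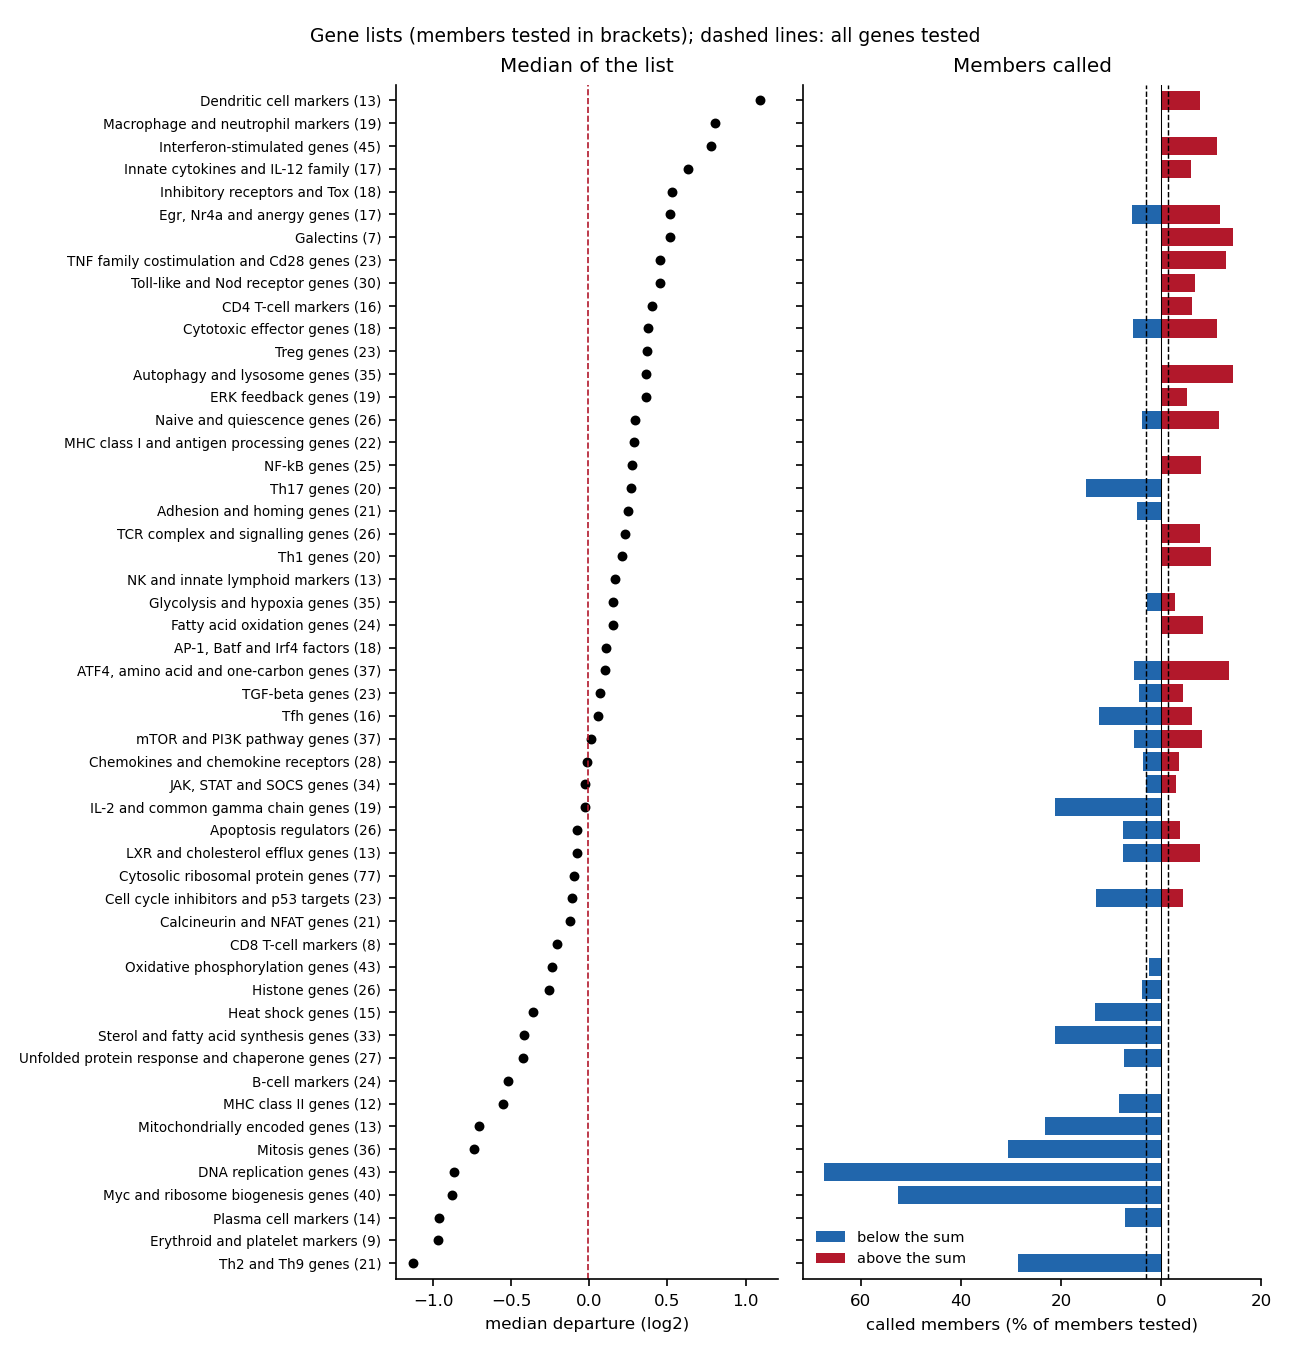
Median departure of each gene list (left, log2) and percentage of its tested members called below the sum (blue, to the left) and above it (red, to the right), with all genes tested as dashed lines at -0.01, 3.00% and 1.35%. DNA replication and ribosome biogenesis genes have the longest blue bars, 67.4% and 52.5%.

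Mitochondrially encoded genes rose with FK506 alone. All 13 were higher with FK506 alone (median log2 change 0.88), their median change with *L. acidophilus* was 0.42 without FK506 and -0.16 with it, and 3 of 13 (23.1%), *CYTB*, *ND1* and *COX2*, were below the sum. None of them was stable, with a count of 0 of 13 in edgeR without any 1 of the *L. acidophilus* libraries, FK506 replicate 1 or 3, or combination replicate 2 or 3, of 1 without anti-CD3 replicate 1, and of 7 without anti-CD3 replicate 3. *CYTB* (cytochrome b) had 1135, 1429 and 1756 CPM with anti-CD3, 2321, 2284 and 2025 with *L. acidophilus*, 3289, 2831 and 3168 with FK506, and 2585, 2376 and 2523 with the combination (departure -0.93, standard error 0.21, adjusted p = 0.03, edgeR). Mitochondrial transcripts took between 1.33% and 1.85% of the counts with anti-CD3, between 2.01% and 2.2% with *L. acidophilus*, between 2.63% and 2.99% with FK506 and between 2.63% and 2.87% with the combination. Of the nuclear genes of oxidative phosphorylation, 1 of 43 (2.33%) was below the sum, *Cycs* (cytochrome c; -0.75, adjusted p = 0.0242, edgeR).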

How the data were processed

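PolyA RNA of mouse CD4+ T cells was sequenced in 12 libraries. The submitters' processing notes name bcl2fastq 2.20.0, Trimmomatic, HISAT2 2.1.0 and StringTie 2.1.3b and the builds mm10 and GRCm38, without their roles. The table that the authors deposited holds, per gene and library, read counts without normalization, FPKM and TPM. The deposited TPM values (12 columns) were not used. No column belonged to a sample without a group. The labels and the methods of the study name different strains, ages and sequencers.

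Counts were tested with edgeR 4.0.16 in R 4.3.3 (TMM, a mean for each of the 4 groups, quasi-likelihood F test, Benjamini-Hochberg adjustment over the 23585 genes). The standard error is the log2 change divided by the square root of F. Library totals of 45416397 to 64658165 counts put a floor of 3 counts at 0.0454 to 0.0656 CPM, which covers counting error only. Groups came from the sample titles. Named genes were the 10 highest and 10 lowest departures that held in all 12 fits leaving out 1 library, with mean FPKM of at least 1 and at least 10 counts on average in each group (229 genes), up to 4 called genes per direction of each of 53 lists, the genes the study names and defining cell markers. Other list members, *Myc* among them, were named after their values were seen. The members and lists were chosen with earlier results of these data known. Of the list entries, 1278 matched by symbol, 27 by an older symbol and 14 not at all. Alternatives were DESeq2 1.42.0, limma 3.58.1 on log2(FPKM + 1), on log2(FPKM + 0.1) and as voom, other scalings, filters and thresholds, a replicate block, and leaving out libraries. The procedure was tested on simulated data. Some genes that these rules select are not reported here. Promoters (250 bases before to 50 after the start) came from RefSeq and covered 15025 of the 23585 genes. Figures were drawn with matplotlib 3.10.9.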

Additional observations from a re-analysis of the deposited data

Results flagged for a closer look

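The departure is itself a test of whether the effect of *L. acidophilus* differed between cells without and with FK506, and 1025 genes passed it, 318 above and 707 below the sum. Given here are the called genes with the highest and lowest departures, by the rule for named genes, and the called genes that the study names.

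Below the sum, *Il17d* departed by -7.40, a fitted value with no count in the combination and so no bound. *Gask1a* departed by -5.12, *Akr1c18* by -4.85, *Epas1* by -4.31 and *Stra6* by -3.82. *P2ry1* departed by -3.52, *Cacna1c* by -3.37, *Il21* by -3.21 and *Il13* by -3.07. *Gzma* departed by -3.02, *Dock5* by -2.90 and *Efna5* by -2.85. Of these, *Il13* and *Gzma* lost the call when some single libraries were left out. *Gask1a*, a secreted Golgi-associated kinase relative, had 30.8, 25 and 20.1 CPM with anti-CD3, 16.3, 17.2 and 17.0 with *L. acidophilus*, 8.4, 11.8 and 26.7 with FK506, and 0.136, 0.263 and 0.507 with the combination. *Stra6*, the retinol-binding protein receptor, had 29.2 to 165 CPM in the 9 other libraries and 3.05, 4.66 and 4.24 CPM with the combination. *Dock5* had 63.9 to 157 CPM in those libraries and 11.1, 13.4 and 14.2 CPM with the combination, and the ephrin *Efna5* had 10.8 to 69.6 CPM and 2.13, 1.88 and 1.93 CPM.

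Above the sum, *Oasl1* departed by 3.83, *Ramp3* by 3.62, *Cd63* by 3.19, *Hmox1* by 3.18 and *Gstm1* by 3.17. *Bmf* departed by 2.93, *Ccl5* by 2.79, *Ccrl2* by 2.75, *Ppp1r3b* by 2.53 and *Sphk1* by 2.52. The sphingosine kinase *Sphk1* had 2.42 to 4.05 CPM with anti-CD3 and 4.97 to 5.53 CPM with the combination, and *Ccrl2*, a receptor that binds chemerin, had 4.24 to 4.83 and 5.84 to 8.71 CPM, both above all libraries of the single agents. *Ppp1r3b*, a glycogen-targeting subunit of protein phosphatase 1, had 30.4 to 92.8 CPM with anti-CD3 and at most 17.9 CPM in every other library, so its departure came with low levels under both agents and under the combination alike. What lies behind these departures was not tested.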

How the results depend on the processing

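The number of departing genes stayed within 1.5 times of 1025 with DESeq2 size factors, no factors, other filters of low counts, another prior count, limma on log2(FPKM + 0.1) and voom. It was 2380 with DESeq2 (1089 above, 1291 below) and 1675 with limma on log2(FPKM + 1) (866 above). Counts above the sum were 632 with limma on log2(FPKM + 0.1) and 545 with a mean of at least 10 counts in each group. The share above the sum was 31.0% with TMM, 38.5% with DESeq2 size factors, 34.5% with no factors, 45.8% with DESeq2 and 44.7% and 51.7% with limma at pseudocounts of 0.1 and 1. Of the 1025 genes, 999 were also called with DESeq2, 966 with voom and 858 with limma on log2(FPKM + 1), each in the same direction. Among the called genes, 559 departed by at least 1 in either direction, 334 of them below, and 149 had an adjusted p under 0.01 in edgeR (33 above, 116 below). *Csf1r* had 0.52 with limma on log2(FPKM + 1) (adjusted p = 0.0156) and -2.70 in edgeR, which is no direction, since the gene had no count in the anti-CD3 libraries and in 2 of 3 *L. acidophilus* libraries.

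Leaving out 1 library gave 332 to 1464 departing genes, 81 to 471 above and 251 to 993 below. It gave 1 (without *L. acidophilus* replicate 1 or 2) to 391 (without anti-CD3 replicate 3) genes for *L. acidophilus* without FK506. It gave 2343 (without FK506 replicate 3) to 5523 genes for *L. acidophilus* with FK506, and 2495 (without FK506 replicate 2) to 4747 for FK506 alone. Replicates 2 and 3 alone gave 474 (252 below), replicates 1 and 3 alone 1 (0 above, 1 below) and replicates 1 and 2 alone 0 in edgeR, with 2576 at an unadjusted p under 0.05. Other tools were not run on these subsets. Leaving out *L. acidophilus* replicate 1 and FK506 replicate 3, chosen after seeing the data, gave 306 (92 above, 214 below). The replicate block raised the departure count to 1578 (580 above) and that of *L. acidophilus* without FK506 to 101. Deviations from the group means correlated by 0.216 on average between libraries of the same number and by -0.105 between those of different numbers, at over 0.1 in 14 of 18 and 9 of 36 pairs. For the departure, which uses all 4 groups, not every same-number pair was over 0.1 (lowest -0.14, anti-CD3 with FK506) and 7 of 12 libraries correlated best with their own number, so the numbers were not taken as pairs. All 3 same-number pairs were over 0.1 between *L. acidophilus* and each of the other groups (lowest 0.199 with anti-CD3, 0.109 with FK506 and 0.111 with the combination). Between the remaining groups not all of them were. Over all named genes and settings, 2667 values kept their side of the threshold, 738 lost the call, 5 gained it, 37 changed sign without a call and 1 reversed. The cause of these changes was not tested.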
